A study of Rattus norvegicus with 10 samples.

Results

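T and NK cell genes were described here as a list of 47 rat genes that are used by T lymphocytes, by natural killer (NK) cells or by both. The members were chosen by symbol: a probe set counted when the platform annotation gave it that symbol alone, and the brightest such probe set over all 10 arrays stood for the gene. Of the 47 genes, 39 were measured in this way, out of 14217 genes measured in all. Of these, 36 passed the filter on low signal and were tested, out of 12255 genes tested.

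The study profiled mammary tumors induced in female Sprague-Dawley rats with 1 oral dose (100 mg/kg) of DMBA, a polycyclic hydrocarbon carcinogen that all the animals received. The 5 tumors, all of intermediate histological grade, carry the codes 09I1, 11D2, 12I1, 29I1 and 43D1, and 2 samples were taken from each. The final sample was taken at 19 weeks of age, after 6 weekly intravenous doses of adriamycin at 1 mg/kg (doxorubicin, an anthracycline that binds DNA and poisons topoisomerase). The basal sample was an untreated needle biopsy at 12 weeks of age. The groups thus held 5 final and 5 basal samples, paired by tumor. The labels of the final samples speak of whole tumors but the series design speaks of needle cores. Treatment and age changed together and the kind of sample may have changed with them, so their effects cannot be told apart. No untreated tumor at the later age was analysed here. The number codes in the sample titles also form separate runs for final and basal samples. What the codes stand for is not stated, and any effect that goes with them cannot be told apart from the group. The labels do not say whether the tumors came from separate rats, so p-values measure the spread between these tumors only.

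T cells recognise peptide antigen through the T cell receptor, whose signal is carried into the cell by the CD3 chains and by the kinases Lck and Zap70. CD4 and CD8 are coreceptors that mark helper and cytotoxic cells. Cytotoxic T cells and NK cells kill target cells with perforin, which opens membranes, and with granzymes, which are serine proteases. NK cells lack the T cell receptor and rely on lectin-like and other activating and inhibitory receptors. In mammary tumors such cells lie within the stroma and among the epithelial cells, and their genes are used as a measure of lymphocyte infiltration. In bulk tissue, fewer cells of a type and less RNA per cell cannot be told apart.

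The promoters of 6 members follow, because these genes carry a contrast described further on. The 3 genes of the CD3 complex were lower in the final sample of tumor 29I1. Granzymes K and B and the T-box factor Eomes were higher there on their brightest probe sets, by 0.17, 1.22 and 0.06 log2 units. The contrast is not a clean one: a second Eomes probe set gave -0.34 in 29I1, and the cytotoxic genes Gzmm and Prf1 were lower there, at -0.20 and -0.16. The genes were picked for that contrast, so nothing is read from how their promoters compare. Each line gives the 250 bases before the RefSeq gene start in assembly GRCr8, 5′ to 3′ on the gene's own strand. Capitals mark exact matches to 6-letter core motifs of 2 factor families used in T cells, ETS (AGGAAG, or CTTCCT on the other strand) and RUNX (TGTGGT, or ACCACA on the other strand).
Cd3d (chr8:54185269-54185518, plus strand): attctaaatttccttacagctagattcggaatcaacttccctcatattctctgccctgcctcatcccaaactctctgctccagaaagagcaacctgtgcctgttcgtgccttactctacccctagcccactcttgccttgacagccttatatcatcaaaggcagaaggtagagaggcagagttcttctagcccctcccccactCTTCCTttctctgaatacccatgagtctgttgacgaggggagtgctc
Cd3g (chr8:54183919-54184168, minus strand): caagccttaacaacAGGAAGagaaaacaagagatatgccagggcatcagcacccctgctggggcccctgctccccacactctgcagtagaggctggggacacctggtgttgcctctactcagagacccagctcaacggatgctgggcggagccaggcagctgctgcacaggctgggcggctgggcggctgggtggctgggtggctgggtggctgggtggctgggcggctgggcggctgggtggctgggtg
Cd3e (chr8:54211771-54212020, minus strand): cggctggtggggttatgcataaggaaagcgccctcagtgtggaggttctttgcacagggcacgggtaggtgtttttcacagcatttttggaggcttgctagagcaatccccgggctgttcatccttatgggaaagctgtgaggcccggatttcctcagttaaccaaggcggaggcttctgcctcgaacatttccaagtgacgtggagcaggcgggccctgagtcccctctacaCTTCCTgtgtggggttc
Gzmk (chr2:46582016-46582265, minus strand): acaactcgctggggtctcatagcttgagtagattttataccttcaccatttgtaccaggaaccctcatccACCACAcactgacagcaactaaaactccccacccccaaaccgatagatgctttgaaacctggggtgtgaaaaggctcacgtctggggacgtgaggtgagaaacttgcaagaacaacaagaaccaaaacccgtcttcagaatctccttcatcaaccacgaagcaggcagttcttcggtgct
Gzmb (chr15:34462470-34462719, minus strand): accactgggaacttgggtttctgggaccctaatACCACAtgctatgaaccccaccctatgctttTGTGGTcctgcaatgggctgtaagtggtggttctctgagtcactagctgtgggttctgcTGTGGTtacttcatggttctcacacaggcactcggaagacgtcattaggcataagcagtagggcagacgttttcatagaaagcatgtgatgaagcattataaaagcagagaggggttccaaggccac
Eomes (chr8:127058965-127059214, plus strand): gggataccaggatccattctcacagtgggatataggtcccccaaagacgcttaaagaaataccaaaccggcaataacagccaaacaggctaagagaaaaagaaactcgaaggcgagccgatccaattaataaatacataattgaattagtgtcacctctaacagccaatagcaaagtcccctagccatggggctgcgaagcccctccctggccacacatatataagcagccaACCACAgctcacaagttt

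Each of the 3 CD3 promoters held 1 ETS match and no RUNX match. Granzyme K and Eomes held 1 RUNX match each, granzyme B held 3, and none of these 3 held an ETS match, so that no ETS match shared bases with a RUNX match in the set. Cd3g and Cd3d lie head to head on opposite strands, with their starts 1601 bases apart. RefSeq promoters were found for 38 of the 47 members, and 19 of them (50%) held the ETS letters on either strand, against 29.5% of 33469 rat promoters of the same length. The RUNX letters were in 17 of 38 members (44.7%), against 14.5% of all promoters. The TCF/LEF letters CTTTGA were in 7 (18.4%), against 13.9%, the T-box letters AGGTGT in 7 (18.4%), against 11.6%, and the GATA letters AGATAA in 3 (7.89%), against 10.3%. Matches to the T-box and RUNX letters can overlap. A match is a description of these letters and not a binding site.

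Genes that define T cells were set against the lower quartile of signal on each array. Most probe sets on an array lie above that level, so lying above it is not a detection call. Cd3d, Cd3e, Cd3g, Cd247, Cd2, Cd5, Cd6, Lck, Zap70 and Lat each lay above the lower quartile of signal (4.0 to 4.29 by array) on all 10 arrays. Of the NK cell markers, Nkg7, Gzma and Klrk1 also lay above it on all 10 arrays. Klrd1 lay below it on 2 arrays, and Prf1 and Eomes on 1 array each. Ncr1, an activating receptor that marks NK cells in rodents, lay below the lower quartile on all 10 arrays. Nkg7, Gzma, Klrk1, Klrd1, Prf1 and Eomes are genes that cytotoxic T cells also use. The regulatory T cell factor Foxp3 was among 8 members with no probe set under their own symbol alone (Cd27, Fasl, Foxp3, Klrb1, Lag3, Pdcd1, Tbx21 and Tigit). These were not counted among the measured members, although Fasl is described further on under its other symbol Faslg. Ifng, the T and NK cell cytokine interferon gamma, lay below the lower quartile on all 10 arrays, at 2.95 to 3.16 in the final samples and 2.91 to 3.23 in the basal samples. Trat1, a T cell receptor adaptor, lay below it on 7 arrays. These 2 genes and Gata1 were under the filter level of 4.11 and were not tested.

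The final sample of tumor 09I1 stood apart from the other 9 arrays. Its beta-actin signal was 2.61 log2 units higher at the 3′ end than at the 5′ end, against 0.72 to 0.96 on the other 9 arrays, and its median correlation with the other arrays was 0.938, against 0.975 to 0.984. The main results are therefore given tumor by tumor. Where a gene has only a mean change in the text, that mean includes 09I1.

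Across the 5 tumors the T and NK cell genes were on average higher in the final than in the basal samples, but none of the differences passed the test. The median of the 36 mean changes was 0.39 log2 units, against 0.01 over all 12255 genes tested (a log2 difference of 1 is a factor of 2). The mean change was above 0 in 33 of 36 members, against 52.7% of all genes tested. Cd4, Cd28 and Icos had mean changes below 0, at -0.37, -0.05 and -0.16. The lowest differences of Cd4 and Cd28 were in 09I1, whose final array stood apart, at -1.86 and -1.59, and that of Icos in 29I1, at -1.56. With limma's paired test and Benjamini-Hochberg adjustment over 23281 probe sets, 0 of 36 members and 0.0% of all probe sets passed an adjusted p of 0.05. The smallest adjusted p was 0.977 among the members and 0.233 in the whole table.

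Before adjustment, Eomes, Gzmk and Gzmm were the 3 of 36 members at p under 0.05 with higher final samples, against 1.78% of all genes tested. In the other direction 0 of 36 members passed that limit, against 1.1% of all genes. Gzmk and Eomes were higher in the final sample in all 5 tumors, 2 of 36 members against 3.33% of all genes, and 0 of 36 were lower in all 5, against 2.51%. These counts and the median depended on single tumors. Without 29I1 the count at unadjusted p under 0.05 was 14 of 36, against 2.7% of all genes, the count higher in every remaining tumor was 15, against 8.1% of all genes, and the median change was 0.62. Without 43D1 these counts were 1, against 1.2% of all genes, and 2, against 5.39%, with a median of 0.22. Without 12I1 they were 5, against 2.02%, and 4, against 7.24%. Without 09I1 they were 3, against 3.39%, and 2, against 7.47%, with a median of 0.33. Without the tumor block 0 of 36 members were higher at an unadjusted p under 0.05, against 1.49% of all genes, and 0 of 36 were lower.

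The tumors differed in direction. In 43D1, 34 of 36 members were higher in the final sample, with a median difference of 0.96, against 48.9% of all genes. In 11D2, 33 of 36 were higher, with a median of 0.87, against 47.1% of all genes. In 09I1, 27 of 36 were higher, with a median of 0.66, against 58.6% of all genes. In 12I1 the members were divided, with 19 of 36 higher and a median of 0.02, against 56.9% of all genes, which is close to the members' share of 52.8%. In 29I1 only 6 of 36 were higher (Gzma, Gzmb, Gzmk, Nkg7, Cd28 and Eomes), with a median of -0.64, against 45.7% of all genes. The median difference over all genes tested lay between -0.04 and 0.15 in every tumor.

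**Figure D1:**
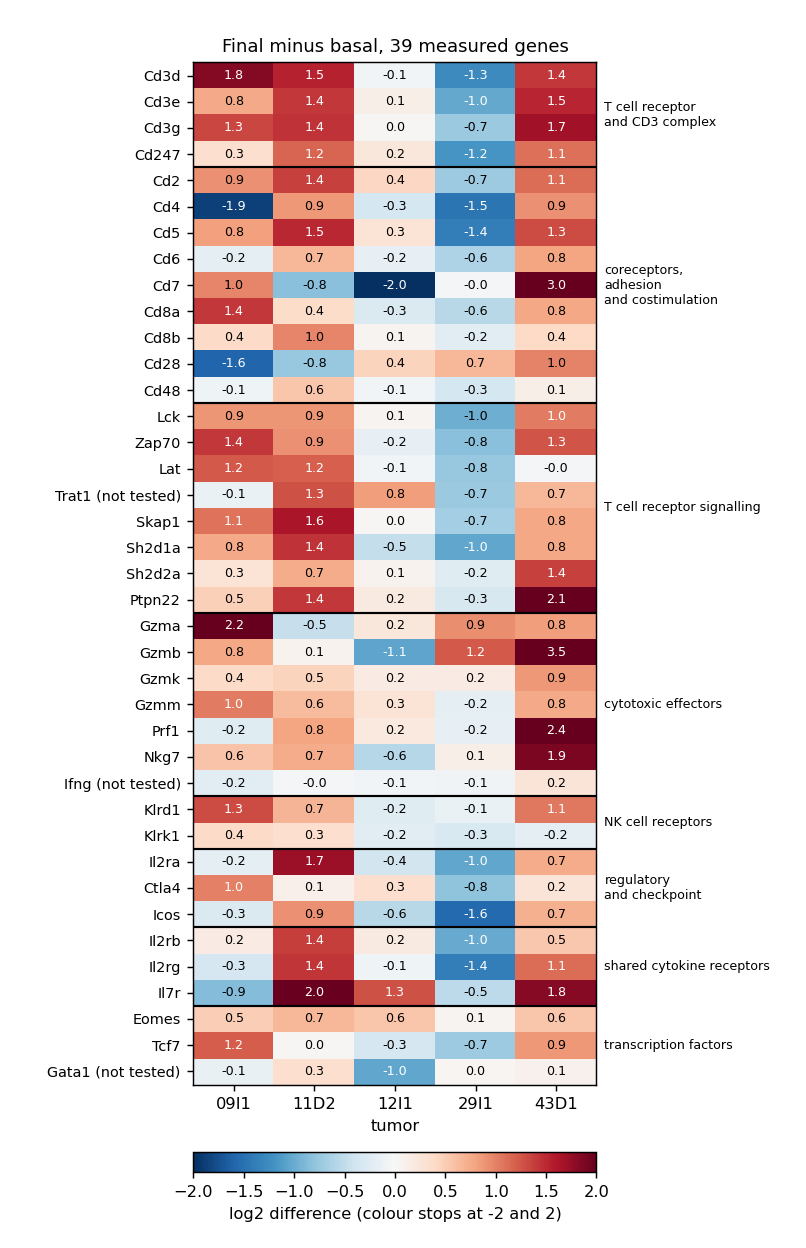
Final minus basal log2 difference of the 39 measured T and NK cell genes (rows, by role) in each of the 5 tumors (columns); red is higher in the final sample, blue lower, and the colour stops at -2 and 2. The columns of 11D2 and 43D1 are mostly red, with 33 and 34 of 36 tested members higher, the column of 29I1 is mostly blue with 6 of 36 higher, and Gzma, Gzmb, Gzmk, Nkg7, Cd28 and Eomes are not blue in it.

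The basal samples differed widely among themselves. The basal sample of 29I1 held the highest basal value of 29 of 36 members, against 23.1% of all genes tested, and the basal sample of 43D1 held the lowest of 28 of 36, against 22.1% of all genes. The median level of the 36 members was 6.32, 7.36, 7.12, 7.02 and 6.61 in the final samples of 09I1, 11D2, 12I1, 29I1 and 43D1, against 5.83, 6.35, 7.11, 7.62 and 5.62 in the basal samples of the same tumors. The final samples thus lay within a narrower band than the basal ones. The SD over 5 arrays was smaller in the final than in the basal samples for 31 of 36 members, against 39.1% of all genes. The median SD of the members was 0.54 in the final and 0.96 in the basal samples, while that over all genes was 0.31 in the final and 0.23 in the basal samples. Cd4, Cd28, Cd48, Gzma and Il7r were the members with the larger SD in the final samples. With 09I1 left out, 34 of 36 members had the smaller SD in the final samples, but so did 64.1% of all genes. The members share their samples, so their count is not a count of independent observations, and no test of the spreads was run. A change is the final minus the basal value, so a high basal value lowers it and a low one raises it by construction.

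**Figure D2:**
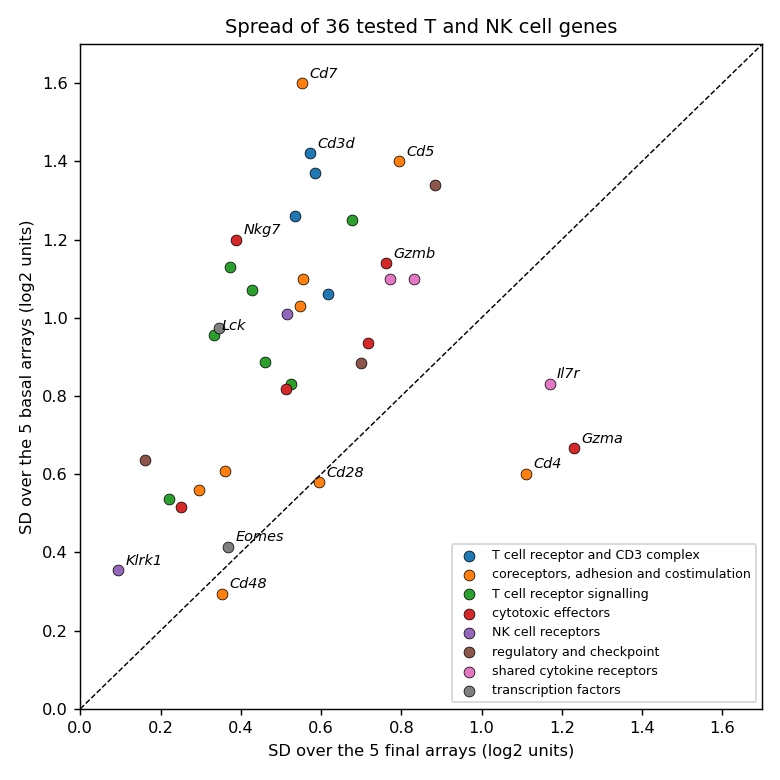
SD of each of the 36 tested genes over the 5 final arrays (horizontal axis) and over the 5 basal arrays (vertical axis), in log2 units, coloured by role; the dashed line marks equal spread. Of the 36 points, 31 lie above the line, and Il7r, Gzma and Cd4 lie farthest below it.

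All 4 genes of the T cell receptor and CD3 complex were higher in the final samples of 09I1, 11D2 and 43D1 and lower in that of 29I1. In the tumor order 09I1, 11D2, 12I1, 29I1 and 43D1, which is kept for all values by array from here on, Cd3g, the gamma chain of CD3, had log2 values of 8.54, 9.64, 9.13, 9.09 and 8.13 in the final samples, against 7.20, 8.19, 9.11, 9.83 and 6.44 in the basal samples. The final values lay inside the range of the basal ones, whose highest was 29I1 and lowest 43D1. The mean change of Cd3g was 0.75 (SE 0.37). Cd3e, the epsilon chain, had 8.24, 9.41, 9.13, 8.87 and 8.21 in the final samples, against 7.48, 7.98, 9.00, 9.90 and 6.69 in the basal samples. Again the groups overlapped, with 29I1 highest and 43D1 lowest among the basal samples, and the mean change was 0.56 (SE 0.37), which was 0.32 without 43D1 and 0.95 without 29I1. Cd3d, the delta chain, differed by 1.83, 1.54, -0.05, -1.27 and 1.41, and Cd247, the zeta chain that carries much of the signal, by 0.34, 1.16, 0.22, -1.18 and 1.10. Over the complex the median difference by tumor was 1.05, 1.44, 0.07, -1.11 and 1.46.

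A second probe set of Cd3e gave -1.27 in 09I1 where the brightest gave 0.75, and the same sign as it in the other 4 tumors. Cd247, Zap70 and Cd8a likewise had dimmer probe sets with differences of the opposite sign in 09I1 (-0.43, -0.12 and -0.14, against 0.34, 1.42 and 1.41 for the brightest). The part that the 3′ excess of this array had in the difference between probe sets was not tested. In the other tumors the probe sets of these 4 genes differed in sign only for Cd8a, in 12I1 and 29I1. Ptpn22, Icos, Il7r and Gzmb, the last with a dim probe set under the filter level, had the same sign on each of their probe sets in all 5 tumors.

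**Figure D3:**
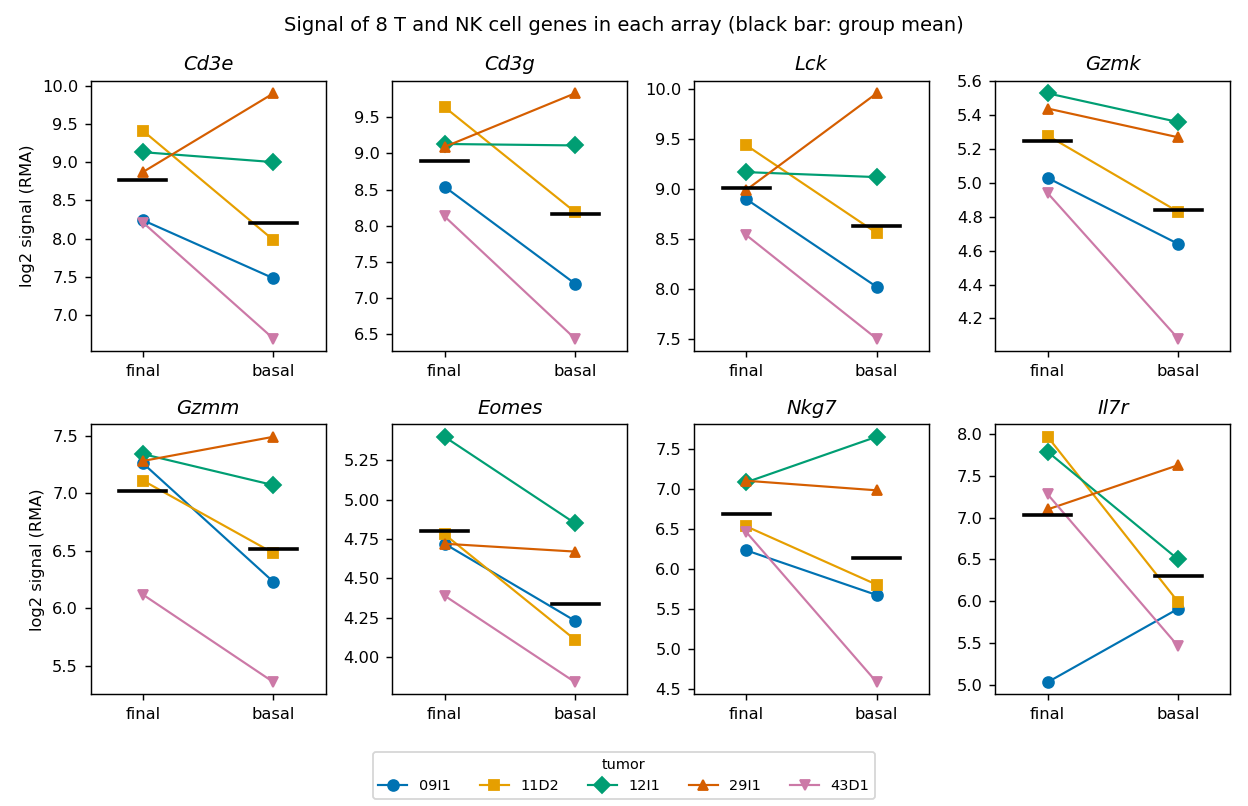
Log2 signal of 8 genes in each final array (left in each panel) and basal array (right), with a line joining the samples of each tumor and a black bar at each group mean; vertical axes differ between panels. Cd3e, Cd3g and Lck are lower in the final sample in 29I1 and higher in 09I1, 11D2 and 43D1, whereas Gzmk and Eomes are higher in the final sample in all 5 tumors.

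Coreceptors, adhesion and costimulatory genes were mixed. Of the 9 tested genes 7 had a mean change above 0, against 52.7% of all genes. None was at an unadjusted p under 0.05, and the group's median change was 0.23. Cd48, a surface protein that most leukocytes carry and that binds the receptor 2B4, was the brightest member, at 9.95, 10.91, 10.30, 10.51 and 10.60 in the final samples, against 10.04, 10.36, 10.37, 10.86 and 10.49 in the basal samples. The groups overlapped almost wholly, and the mean change was 0.03 (SE 0.15). Cd7, a glycoprotein of T and NK cells, had 9.06, 7.70, 8.11, 8.69 and 8.78 in the final samples, against 8.09, 8.53, 10.13, 8.72 and 5.73 in the basal samples. Its pattern departed from that of the CD3 genes: the basal samples of 12I1 and 43D1 were the extremes, and the mean change of 0.23 (SE 0.66) turned to -0.48 without 43D1.

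Cd2 and Cd5, adhesion and signal-tuning receptors of T cells, had the sign of the CD3 genes in 09I1, 11D2, 29I1 and 43D1, with mean changes of 0.61 (SE 0.31) and 0.50 (SE 0.41). Cd6, a relative of Cd5, had 0.10 (SE 0.24). Cd8a and Cd8b, the chains of the cytotoxic coreceptor, had mean changes of 0.34 (SE 0.30) and 0.32 (SE 0.19). The dimmer Cd8a probe sets gave mean changes of 0.11 and 0.15. In 09I1 they gave 0.10 and -0.14, where the brightest gave 1.41. Cd4, the helper coreceptor, which rat macrophages also carry, had -0.37 (SE 0.45), with differences of -1.86, 0.87, -0.35, -1.46 and 0.92. The costimulatory receptor Cd28 had -0.05 (SE 0.38), with -1.59 and -0.76 in 09I1 and 11D2 and 0.44, 0.67 and 0.99 in the other tumors.

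Genes of T cell receptor signalling had medians of the same sign as the CD3 complex in each tumor. All 7 tested genes had a mean change above 0 and a smaller SD in the final samples, against 52.7% and 39.1% of all genes. None was at an unadjusted p under 0.05, and the median by tumor was 0.88, 1.19, 0.03, -0.76 and 1.04. Lck, the kinase that starts receptor signalling, had 8.90, 9.44, 9.17, 8.99 and 8.54 in the final samples, against 8.02, 8.56, 9.12, 9.96 and 7.50 in the basal samples. All 5 final values lay between the basal extremes of 43D1 and 29I1, and the mean change was 0.38 (SE 0.31), which was 0.21 without 43D1 and 0.71 without 29I1. Lat, the scaffold that Zap70 phosphorylates, had 7.65, 8.42, 7.90, 7.78 and 6.96 in the final samples, against 6.43, 7.23, 7.96, 8.54 and 7.00 in the basal samples. In 43D1, where Lck differed by 1.04, the change of Lat was -0.04. Its mean change was 0.31 (SE 0.32), which was 0.08 without 09I1, 0.09 without 11D2 and 0.58 without 29I1.

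Zap70, the second kinase of the cascade, had a mean change of 0.52 (SE 0.35) on its brightest probe set. Its dimmer probe set gave a mean change of only 0.19. In 09I1 the dimmer probe set gave -0.12, where the brightest gave 1.42. The adaptors Skap1, Sh2d1a and Sh2d2a had 0.57 (SE 0.33), 0.29 (SE 0.35) and 0.44 (SE 0.25). Of these, Sh2d1a lay below the lower quartile on 4 arrays. Ptpn22, a phosphatase that restrains Lck, had 0.77 (SE 0.35), with 2.12 in 43D1. The basal Ptpn22 value in 43D1 was 3.72, below that array's lower quartile of 4.02. Trat1, which was not tested, differed by -0.13, 1.28, 0.83, -0.74 and 0.66.

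Cytotoxic effector genes were higher in the final samples on average in 6 of 6 tested members, against 52.7% of all genes, with a median change of 0.57. Their median difference by tumor was 0.67, 0.54, 0.18, 0.14 and 1.37, so that in 29I1 it was above 0 where that of the CD3 complex was -1.11. The difference between these groups in that tumor was not tested, as it rests on 1 tumor. Gzmk, granzyme K, had 5.03, 5.28, 5.53, 5.44 and 4.94 in the final samples, against 4.64, 4.83, 5.36, 5.27 and 4.08 in the basal samples. Within each tumor the final sample was the higher, though the groups overlapped, and the mean change was 0.41 (SE 0.15). Gzmm, granzyme M, had 7.26, 7.11, 7.34, 7.28 and 6.12 in the final samples, against 6.23, 6.48, 7.07, 7.49 and 5.36 in the basal samples. It was higher in the final sample in every tumor but 29I1, with a mean change of 0.50 (SE 0.21), which was 0.36 without 09I1.

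Nkg7, a membrane protein of cytotoxic granules, had 6.23, 6.53, 7.08, 7.10 and 6.46 in the final samples, against 5.67, 5.80, 7.65, 6.98 and 4.58 in the basal samples. Its final values lay inside the basal range, with 12I1 as the tumor in which the final sample was lower, and the mean change was 0.55 (SE 0.33), which was 0.21 without 43D1. Gzmb, granzyme B, had the largest mean change of the 36, 0.90 (SE 0.58), made up of 0.77, 0.07, -1.05, 1.22 and 3.48. Its basal value in 43D1 was 3.33, below that array's lower quartile of 4.02. The dim second Gzmb probe set gave a mean change of 0.38. Gzma, granzyme A, had 0.75 (SE 0.35), with 2.22 in 09I1 and 0.93 in 29I1. Perforin, Prf1, had 0.60 (SE 0.38), with 2.40 in 43D1 and between -0.24 and 0.79 in the others. The basal Prf1 value in 43D1, 3.91, was likewise below that array's lower quartile. 

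Of the NK cell receptors, Klrk1 and Klrd1 were measured. Klrk1, the activating receptor NKG2D of NK cells and many cytotoxic T cells, had 7.00, 7.01, 6.93, 7.15 and 6.91 in the final samples, against 6.60, 6.68, 7.13, 7.46 and 7.11 in the basal samples. Its final samples lay close together, between 6.91 and 7.15, and its mean change was 0.00 (SE 0.18). Klrd1, the CD94 chain that pairs with NKG2 receptors, had 5.60, 4.69, 5.35, 5.82 and 4.71 in the final samples, against 4.30, 4.01, 5.60, 5.95 and 3.66 in the basal samples. It was higher in the final samples of 09I1, 11D2 and 43D1 and a little lower in the other tumors, with a mean change of 0.53 (SE 0.26), which was 0.34 without 09I1.

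The regulatory and checkpoint genes that could be measured were highest in the basal sample of 29I1 and had mean changes between -0.16 and 0.18. Icos, a costimulatory receptor of activated and regulatory T cells, had 5.45, 7.70, 7.16, 7.37 and 6.57 in the final samples, against 5.74, 6.79, 7.73, 8.93 and 5.87 in the basal samples. The basal sample of 29I1 was the highest of all 10, and the mean change was -0.16 (SE 0.36), which turned to 0.19 without that tumor. Il2ra, the high-affinity chain of the interleukin-2 receptor that activated and regulatory T cells carry, had 5.77, 7.68, 6.45, 6.78 and 6.38 in the final samples, against 5.96, 5.97, 6.81, 7.81 and 5.64 in the basal samples. The groups overlapped, with 11D2 the highest of the final samples and 29I1 of the basal ones, and the mean change of 0.17 (SE 0.38) was -0.21 without 11D2. Ctla4, an inhibitory receptor, had 0.18 (SE 0.25), with a final range of 5.09 to 5.54 and a basal range of 4.36 to 6.10.

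The shared cytokine receptor genes had a median difference of -0.33 in 09I1, where that of the CD3 complex was 1.05 on its brightest probe sets. In the same tumor the dimmer probe sets of Cd3e and Cd247 gave -1.27 and -0.43, and the final array had the 3′ excess of beta-actin (2.61). Il2rg, the common gamma chain of several interleukin receptors, had 7.26, 9.52, 8.95, 8.62 and 8.44 in the final samples, against 7.59, 8.09, 9.03, 10 and 7.33 in the basal samples. The final sample of 09I1 was the lowest of all 10, and the mean change was 0.15 (SE 0.40). Il7r, the interleukin-7 receptor that keeps naive and memory T cells alive, had 5.03, 7.97, 7.79, 7.10 and 7.28 in the final samples, against 5.91, 5.99, 6.50, 7.63 and 5.46 in the basal samples. Here too the final sample of 09I1 was the lowest of the 10, while its difference of 1.28 in 12I1 was the highest of any member in that tumor. The mean change of Il7r was 0.74 (SE 0.47). It was 1.14 without 09I1, 0.43 without 11D2 and 0.46 without 43D1. A second Il7r probe set gave a mean change of 0.73 and the same signs in all 5 tumors. Il2rb, the beta chain shared with the interleukin-15 receptor of NK cells, had 0.25 (SE 0.32).

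Among the transcription factors, Eomes, a T-box factor of cytotoxic and NK cells, had 4.72, 4.78, 5.40, 4.72 and 4.39 in the final samples, against 4.23, 4.11, 4.85, 4.67 and 3.84 in the basal samples. The final sample was the higher within each tumor, by only 0.06 in 29I1, and the groups overlapped. Its mean change was 0.46 (SE 0.13, adjusted p = 0.977). A dimmer second probe set gave 0.52, with -0.34 in 29I1, so that it was higher in 4 of 5 tumors. Tcf7, the factor of naive and memory T cells, had 8.84, 8.88, 8.89, 8.62 and 8.08 in the final samples, against 7.63, 8.84, 9.23, 9.35 and 7.20 in the basal samples. Its differences were 1.21, 0.03, -0.34, -0.72 and 0.87, and its mean change of 0.21 (SE 0.30) was -0.04 without 09I1.

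Gata1 is described apart, since it is known as a factor of red cell, platelet, mast cell and eosinophil precursors. It lay below the lower quartile on 8 of 10 arrays, with 3.71 to 4.19 in the final samples and 3.68 to 4.83 in the basal samples, and the highest value was the basal sample of 12I1. The GATA factor of T cells, Gata3, which is also a factor of luminal mammary epithelium, was looked at after the values had been seen. It had 10.30 to 11.26 in the final samples and 10.72 to 11.56 in the basal samples, with a mean change of -0.15 (SE 0.25). Fasl was annotated as Faslg, which encodes the death ligand of cytotoxic cells. That gene, also chosen after the values were seen, was higher in the final sample in 4 of 5 tumors, with a mean change of 0.22 (SE 0.16). Of the rat genes related to Klrb1, likewise added later, Klrb1a had 0.18 (SE 0.26), Klrb1b 0.06 (SE 0.17) and Klrb1c 0.08 (SE 0.20). Klrb1a lay below the lower quartile on 2 arrays and Klrb1b on 5.

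A list of 38 further T and NK cell genes outside the members had list medians of the same sign as the members in 4 of the 5 tumors, the exception being 12I1. Of its 22 tested genes 16 had a mean change above 0, against 52.7% of all genes, with a median of 0.23 and medians by tumor of 0.49, 0.77, -0.01, -0.68 and 0.61. The SD was smaller in the final samples for 19 of 22, against 39.1% of all genes. At an unadjusted p under 0.05, 1 was higher and 1 lower, against 1.78% and 1.1% of all genes. Cd96, a receptor of T and NK cells, had 5.23, 5.45, 5.94, 5.85 and 5.37 in the final samples, against 3.98, 4.51, 5.44, 5.92 and 4.57 in the basal samples, with a mean change of 0.68 (SE 0.20). Ikzf2, the factor Helios of regulatory T cells, which other tissues also express, had 4.63, 4.87, 5.01, 4.62 and 4.64 in the final samples, against 5.00, 5.38, 5.22, 6.03 and 5.41 in the basal samples. It was lower in the final sample in all 5 tumors, and only its 12I1 final value reached the lowest basal one, with a mean change of -0.65 (SE 0.19). The T cell chemokine list (9 tested genes) had a median change of 0.13 and medians by tumor of 0.77, 0.18, 0.15, -1.37 and 1.07. In it 7 genes were above 0 and 2 below, against 52.7% of all genes above 0. Ccl5, which T and NK cells secrete, had a mean change of 0.81 (SE 0.34) and Xcl1, the chemokine lymphotactin of the same cells, 0.62 (SE 0.38). Cxcl9, Cxcl10 and Cxcl11, the interferon-induced ligands of the T cell chemokine receptor Cxcr3, had mean changes of 0.13 (SE 0.42), -0.53 (SE 0.49) and -0.17 (SE 0.69). They had -1.96, -2.92 and -3.13 in 29I1 and 1.07, 0.63 and 2.04 in 43D1.

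The pan-leukocyte and macrophage lists had medians of the same sign as the T and NK cell genes in 11D2, 29I1 and 43D1, and of the opposite sign in 09I1 and 12I1. The pan-leukocyte list (10 tested genes) had medians by tumor of -0.21, 1.02, -0.16, -0.97 and 0.91, and the macrophage list (14 tested genes) -0.16, 0.80, -0.76, -1.36 and 1.17. In 29I1, 0 of 10 pan-leukocyte genes and 1 of 14 macrophage genes were higher in the final sample, against 45.7% of all genes. In 43D1 8 of 10 and 14 of 14 were, against 48.9%. In 09I1 the CD3 complex had 1.05 where the pan-leukocyte and macrophage lists were below 0. That value is from the array with the 3′ excess of beta-actin (2.61) and from the brightest probe sets, and the second probe sets of Cd3e and Cd247 were themselves below 0 there, at -1.27 and -0.43. The summed level of the 14 macrophage genes lay between 128.09 and 139.40 log2 units in the final samples and between 120.75 and 147.72 in the basal samples. All 14 had the smaller SD in the final samples, against 39.1% of all genes. Cd14, the endotoxin coreceptor, had a mean change of 0.21 (SE 0.24) and Csf1r, the macrophage growth factor receptor, -0.25 (SE 0.33). Of the pan-leukocyte genes, Cytip, which tunes leukocyte adhesion, had 0.66 (SE 0.25) and Cd52, a small surface glycoprotein, -0.83 (SE 0.55). The summed level of the 10 pan-leukocyte genes lay between 85.48 and 96.40 in the final samples and between 85.62 and 99.11 in the basal samples. Defining genes of both lists were well above the lower quartile: Ptprc, which encodes CD45, had 7.10 to 9.53 in the final samples and 7.94 to 9.73 in the basal samples, and Cd68 had 8.49 to 9.24 in the final samples and 7.73 to 10.03 in the basal samples. The part of the total leukocyte content in the T and NK cell values was not tested.

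B cell genes were partly near background. Of 10 measured genes 6 were tested, and Blnk, Jchain, Fcrla, Cd22 and Cd79b lay above the lower quartile on all 10 arrays. Ms4a1, which encodes CD20, lay below it on 9 of 10 arrays, and Pou2af1 and Tnfrsf17 on all 10. The 6 tested genes of the B and plasma cell list had medians by tumor of 0.31, 0.22, -0.72, -0.07 and 0.24, with summed levels of 32.24 to 36.12 in the final samples and 33.43 to 36.79 in the basal samples. Blnk, an adaptor of the B cell receptor, had a mean change of 0.33 (SE 0.20) and Fcrla, an Fc receptor-like protein of B cells, -0.35 (SE 0.25). The lymph node stroma list (5 tested genes) had medians by tumor of 0.41, 1.59, -0.28, -1.07 and 1.5, with the sign of the CD3 complex in every tumor but 12I1. Ccl21, a chemokine of lymph node T zones and lymphatic vessels, differed by 4.73, 2.64, 0.24, -4.93 and 1.5, the sign of the CD3 complex in all 5 tumors, with a mean change of 0.84 (SE 1.22). Cxcl13, the chemokine that draws B cells into follicles, differed by -0.75, 1.60, -2.60, -2.82 and 3.37. Cr2 and Madcam1 lay below the lower quartile on all 10 arrays, and Ccl19, another T zone chemokine, had a mean change of 0.12 (SE 0.15). These 2 larger shifts were picked out after the values were seen, and the part of lymphoid tissue in the T and NK cell values was not tested. Ltb, a lymphotoxin chain that lymphocytes themselves make, had 0.52 (SE 0.41). The summed level of the 5 tested genes of that list lay between 30.38 and 38.89 in the final samples and between 28.97 and 40.81 in the basal samples. Glycam1, which lactating mammary epithelium also makes, ranged from 4.77 to 12.28 in the final samples and from 5.44 to 10.40 in the basal samples.

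The response genes of interferon gamma had medians by tumor of -0.04, 0.30, -0.20, -0.60 and 0.50 over 12 tested genes. The order of the tumors in this list was that of the macrophage genes. The SD was smaller in the final samples for 11 of 12 genes, against 39.1% of all genes, and 12 of 12 were higher in 43D1, against 48.9%. Tap1, a peptide transporter, had a mean change of -0.25 (SE 0.17) and Psmb8, an immunoproteasome subunit, 0.15 (SE 0.12). The 12 epithelial genes had medians of -0.45, 0.04, 0.05, 0.32 and 0.29, with summed levels of 127.97 to 135.65 in the final samples and 131.32 to 135.81 in the basal samples. Elf3, an epithelial transcription factor, had a mean change of 0.29 (SE 0.21) and Cldn3, a tight junction protein, 0.20 (SE 0.16). The median of the epithelial genes was of the opposite sign to that of the CD3 complex in 09I1 and 29I1 and of the same sign in the other tumors.

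**Figure D4:**
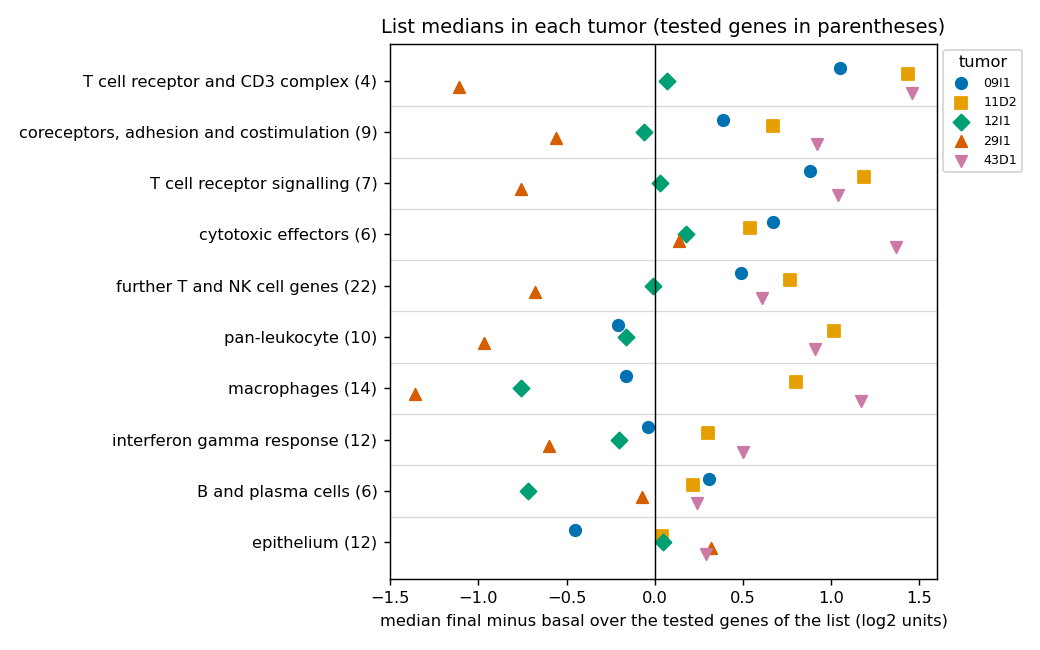
Median final minus basal difference (horizontal axis, log2 units) over the tested genes of 10 lists, 1 point per tumor; the number of tested genes is in parentheses. In the T cell, pan-leukocyte and macrophage lists 29I1 lies farthest left and 11D2 and 43D1 farthest right, while for cytotoxic effectors 29I1 lies at 0.14 and in 09I1 the CD3 complex lies at 1.05 where macrophages lie at -0.16.

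Genes of other cell types also differed between the groups. Of 7 tested red blood cell genes 4 were lower at an unadjusted p under 0.05, against 1.1% of all genes. They were led by Alas2, the erythroid enzyme of heme synthesis, at -3.15 (SE 0.59) and Hbb, beta globin, at -2.22 (SE 0.42). The list's medians by tumor were -0.62, -1.11, -2.27, 0.06 and 0.12, so that the median was a little above 0 in 29I1 and 43D1. The summed level of the red cell genes lay between 36.71 and 46.79 in the final samples and between 39.34 and 57.56 in the basal samples. Platelet genes had a median change of -0.46, with Clec1b at -1.42 (SE 0.26) and Pf4 at -1.14 (SE 0.30), and summed levels of 33.08 to 37.51 in the final samples and 34.87 to 42.07 in the basal samples. The 10 fibroblast genes had medians by tumor of -0.47, 0.99, 0.71, -1.53 and 0.03, with Dpt, a matrix protein, at a mean change of 2.32 (SE 0.61) and Pdgfra, a growth factor receptor, at 0.89 (SE 0.36). Of these 10 genes, 5 had a mean change above 0 and 5 below, and the list's median change was -0.03. The collagen genes Col1a1, Col1a2 and Col3a1 were among those below, at -0.77 (SE 0.46), -0.50 (SE 0.43) and -0.33 (SE 0.42). The 8 endothelial genes had medians of 0.25, 0.26, 0.34, -0.67 and 0.06, with Pecam1 at 0.35 (SE 0.18) and Kdr at -0.38 (SE 0.25). The 11 mast cell and eosinophil genes had medians of -0.50, 0.45, -0.69, 0.91 and -1.03, with Ccr3, the eotaxin receptor, at 1.3 (SE 0.37) and Hdc, the enzyme that makes histamine, at -0.50 (SE 0.28). Ccr3 lay below the lower quartile on 4 arrays. Of the same list, Epx, Il5ra and Siglec5 lay below it on all 10 arrays and were not tested, and Prg2, at 0.16 (SE 0.21), on 6. The 5 neutrophil genes had medians of 0.30, -0.33, -0.47, -0.72 and 0.08, with S100a9 at -1.37 (SE 0.46) and S100a8 at -0.74 (SE 0.43), both subunits of calprotectin. The other neutrophil genes, Cxcr2, Camp and Lcn2, had mean changes above 0, at 0.27 (SE 0.27), 0.16 (SE 0.10) and 0.04 (SE 0.17), and the list's median change was 0.04. None of these passed adjustment, and their part in the T and NK cell values was not tested.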

How the data were processed

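Total RNA of 5 final and 5 basal tumor samples was hybridised to Affymetrix rat genome arrays, per the labels' protocols. The deposited values are log2 signals that the authors normalized by robust multichip averaging. They used GeneSpring GX 7.3 and a paired Student's test, per the series' design text. The table had 31099 probe sets. The 57 controls and the lowest 25% by mean (under 4.11) were left out here, which left 23281. Limma 3.58.1 (R 4.3.3) fitted group with tumor code as a block and an intensity trend, with Benjamini-Hochberg adjustment over all of them. The fit was tested on simulated data. Genes were read from the brightest probe set annotated with 1 symbol alone. All 39 measured members matched the RefSeq GRCr8 table by Entrez identifier with the same symbol. The members and all lists were chosen with earlier results of these data known, so lists have counts and medians and no p.

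All measured members are named. Values by array are given for the 2 brightest members of each role group, for those at unadjusted p under 0.05 and for those with the same sign in all 5 tumors. Of each other list the 2 genes with the smallest p were taken. Further genes named there were defining markers or were added outside that rule, among them Ccl21 and Cxcl13, which were picked out after the values were seen. Samples were paired by the tumor codes in the labels. Deviations of same-tumor samples from their group means correlated at 0.072, 0.095, 0.014, -0.15 and 0.22 in 09I1, 11D2, 12I1, 29I1 and 43D1. Alternatives covered pairing, filter, normalization, weights, probe set summary, variance trend, the methods' t-test and leaving out each tumor. With 5 arrays a group, their number limits the precision. Differences between levels of different genes were not read, since probe sets are not comparable.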

Additional observations from a re-analysis of the deposited data

Results flagged for a closer look

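Dixon's test was run on the final and on the basal values of the 17 members with values by array, of the beta-actin difference and of each array's median correlation with the others. That made 38 groups of 5, of which chance would single out about 1.9, and it singled out 3. The Gzmm value of the final sample of 43D1 was 6.12, against 7.11 to 7.34 in the other final samples, and the basal sample of that tumor was also the lowest of its group, at 5.36. The beta-actin difference between the 3′ and the 5′ end was 2.61 in the final sample of 09I1, against 0.72 to 0.83 in the other final samples. The median correlation of the same array with the others was 0.938, against 0.977 to 0.984 in the other final samples.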

How the results depend on the processing

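No probe set and no member passed an adjusted p of 0.05 in any of the settings run. The count of members with an unadjusted p under 0.05 and higher final samples was 3 as reported. It was 0 with no replicate block, against 1.49% of all genes. With the dimmer 50% of probe sets removed, which takes out Gzmk and Eomes, it was 1, against 1.45%. With array weights it was 12, against 4.47% of all genes. Leaving out each tumor it ran from 1 (43D1, 1.2% of all genes) to 14 (29I1, 2.7%). The count of members higher in every tumor, 2 as reported, was 0 with the dimmer 50% removed, 1 with cyclic loess and 1 with the mean over probe sets, and from 2 (43D1 and 09I1, 5.39% and 7.47% of all genes) to 15 (29I1, 8.1%) with a tumor left out. The median change of 0.39 lay between 0.22 and 0.62 with a tumor left out and between 0.33 and 0.42 under the filters, normalizations and probe set mean tried for it. It was not computed with array weights. Among the 17 members with values by array, 224 of 235 values kept their sign. Array weights turned Cd7 to -0.11 and Icos to 0.20, and moved Il2ra to 0.69, Il2rg to 0.62, Il7r to 1.34, Cd48 to 0.20 and Tcf7 to 0.05. Leaving out each tumor, Cd7 ran from -0.48 to 0.79, Icos from -0.43 to 0.19, Cd48 from -0.10 to 0.13, Il2ra from -0.21 to 0.47, Il2rg from -0.17 to 0.53, Klrk1 from -0.10 to 0.08 and Tcf7 from -0.04 to 0.44. The others kept their sign, with Cd3e from 0.32 to 0.95, Cd3g from 0.52 to 1.12, Lck from 0.21 to 0.71, Lat from 0.08 to 0.58, Gzmk from 0.30 to 0.47, Gzmm from 0.36 to 0.67, Nkg7 from 0.21 to 0.83, Klrd1 from 0.34 to 0.73, Il7r from 0.43 to 1.14 and Eomes from 0.41 to 0.57. The cause of these shifts was not tested. The count of members with a smaller SD in the final samples was added after the data had been seen. It was 31 of 36, against 39.1% of all genes. With a tumor left out it ran from 27 (29I1, 36.9% of all genes) to 34 (09I1, 64.1%). Among the members, signal near background limits Ifng, Trat1 and Gata1, and in part Sh2d1a, which lay below the lower quartile on 4 arrays.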
